A study of Caenorhabditis elegans with 2 samples.

Results

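The genes nhl-2, puf-9, lin-66 and mab-10 belong to the heterochronic pathway, the set of regulators that times larval development in the nematode Caenorhabditis elegans. Each of these 4 genes had a binding peak of the nuclear receptor NHR-41 shortly before its transcript start. They were chosen by that measured value, as heterochronic genes with a peak summit in the promoter window in the conservative list. That window reached 1000 bp before and 200 bp past any annotated start of a transcript. It held a summit for 535 of 19973 protein-coding genes (2.68%), and nothing is read from the 4 of 4 beside that share because it is what chose the genes. All peaks with a summit between 5 kb upstream of the first transcript start and the gene end were then collected. They came to 4 conservative peaks of 1069, and 46 of the 48276 peaks in a ranked list of both replicates.

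NHR-41 is related to the vertebrate receptors TR2 and TR4. Its binding was measured by ChIP-seq, in which DNA bound by a protein is pulled down with an antibody, here one against GFP, and sequenced, in 1 group of 2 biological replicates. Both replicates were whole L4 larvae, the last larval stage, aged 48.5 h and synchronised as starved L1 larvae after bleaching. Both came from strain RW12221, in which CRISPR had placed a TY1::EGFP::3xFLAG tag in nhr-41 itself (allele st12221, chromosome IV). There was no second genotype or treatment, and peaks of the listed control experiment were not analysed here. The animals were whole, so the tissue in which a site was bound, and the share of cells with it bound, cannot be told apart from the strength of binding. Read depth was unknown, because peak lists carry no read totals.

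The heterochronic pathway works through switches in RNA and protein levels from one larval stage to the next. MicroRNAs of the lin-4 and let-7 families silence earlier regulators such as lin-14, lin-28, hbl-1 and lin-41, and at the end of the pathway LIN-29 drives the larval-to-adult switch of the skin. NHL-2 is a TRIM-NHL protein that strengthens silencing by the microRNA complex. PUF-9 is an RNA-binding protein of the Pumilio family that represses hbl-1 messenger RNA. LIN-66 lowers the activity of lin-28. MAB-10 is a NAB-type transcription cofactor that acts with LIN-29 in the late larva.

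The sequences around the 4 summits are shown because the values below describe the peaks there. Each run covers 151 bases, 75 to each side of the summit, read 5′ to 3′ on the strand of the gene from the RefSeq genome sequence of WBcel235 (ce11). Capitals mark the only words of 7 letters that stood in 3 of the 4 windows, TACTCTC and GGTGTCC. The nhl-2 window is wider than the conservative peak there, which is 132 bp. The nhl-2 copy of TACTCTC lies outside that peak, but inside the wider peaks of both replicates' own lists.
nhl-2, chrIII:4899836-4899986, minus strand: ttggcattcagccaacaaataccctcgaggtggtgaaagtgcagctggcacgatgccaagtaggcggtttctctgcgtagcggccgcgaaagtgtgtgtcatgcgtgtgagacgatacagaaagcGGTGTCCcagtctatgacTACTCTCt
puf-9, chrX:5841188-5841338, plus strand: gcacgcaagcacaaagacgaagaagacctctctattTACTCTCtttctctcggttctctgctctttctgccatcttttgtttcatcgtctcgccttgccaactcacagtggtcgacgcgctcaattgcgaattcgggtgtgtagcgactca
lin-66, chrIV:13887613-13887763, plus strand: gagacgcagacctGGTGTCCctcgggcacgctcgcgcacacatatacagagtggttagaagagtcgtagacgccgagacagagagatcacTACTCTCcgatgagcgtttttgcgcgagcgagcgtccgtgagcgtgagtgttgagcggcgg
mab-10, chrII:10527670-10527820, plus strand: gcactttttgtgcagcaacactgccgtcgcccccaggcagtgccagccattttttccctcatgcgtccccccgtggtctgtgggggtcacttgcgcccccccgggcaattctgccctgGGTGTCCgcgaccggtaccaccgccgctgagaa

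The 4 peaks ran from near the top to near the foot of the conservative list when it was ordered by strength. Strength is given as the signal value of the authors' peak caller, whose reference is not stated, so it ranks peaks within a list and is no absolute occupancy. Over the 1069 conservative peaks the median signal was 82.8 and the highest was 318. The values per replicate come from the list that each replicate had of its own, and each mean below is over n = 2 replicates. At all 4 sites these equalled the unnumbered replicate signals that stand beside the peak in the ranked list.

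nhl-2 had the strongest peak of the 4. The gene (WBGene00003598) lies on the minus strand of chromosome III, from 4893658 to 4899085 on ce11, and has 1 annotated start. Its peak at chrIII:4899849-4899980 had its summit 826 bp upstream of that start. The signal was 244, which ranked 8 of 1069. Replicate 1 gave 114.1 and replicate 2 gave 125, a mean of 119.5 ± 7.66 (SD, n = 2). The replicates were close, with replicate 2 at 1.09 times replicate 1. In each replicate's own ranked list the peak stood near the top, at rank 6 of 38647 and rank 17 of 35958. In the conservative list the peak was narrow, at 132 bp. There 284 bp was the most frequent width, and 26 of the 1069 conservative peaks (2.43%) were narrower than that. In the own lists of replicates 1 and 2 the nhl-2 peak was 260 and 264 bp wide, as were the overlapping peaks at the other genes.

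puf-9 came next. The gene (WBGene00004245) runs from 5841592 to 5845987 on the plus strand of chromosome X with 1 annotated start. Its peak at chrX:5841121-5841404 had its summit 329 bp upstream. The signal was 164, rank 42 of 1069. Replicate 1 gave 84.3 and replicate 2 gave 75.9, a mean of 80.1 ± 5.92 (SD, n = 2). It was the only one of the 4 sites with the lower value in replicate 2, at 0.901 times replicate 1. Replicate 2 was the higher at 805 of the 1050 conservative peaks with a ranked peak in both replicates (76.7%), with a median ratio of 1.25. The ranks in the replicates' own lists were 35 and 102.

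lin-66 had a peak of about median strength. The gene (WBGene00001562) runs from 13888079 to 13893986 on the plus strand of chromosome IV and has 3 annotated starts, the others 10 and 3596 bp into the gene. Its peak at chrIV:13887546-13887829 had its summit 391 bp upstream of the first start. The signal was 85.4, rank 480 of 1069. Replicate 1 gave 31.4 and replicate 2 gave 47.0, a mean of 39.2 ± 11.1 (SD, n = 2). This was the widest replicate difference of the 4, a ratio of 1.498. The ranks were 1172 in replicate 1 and 616 in replicate 2.

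mab-10 had the weakest peak of the 4 and stood near the foot of the conservative list. The gene (WBGene00003107) runs from 10528084 to 10534380 on the plus strand of chromosome II, with 3 annotated starts, the others 2251 and 2338 bp into the gene. Its peak at chrII:10527603-10527886 had its summit 339 bp upstream of the first start. The signal was 57.6, rank 992 of 1069. Replicate 1 gave 35.3 and replicate 2 gave 40.0, a mean of 37.6 ± 3.29 (SD, n = 2). The ratio of the replicates was 1.13, and the ranks in their own lists were 749 and 1021.

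The order of the replicate levels was nhl-2, then puf-9, then lin-66 and mab-10 together. Both nhl-2 values lay above both puf-9 values, and both of these lay above the other genes. The lin-66 values of 31.4 and 47.0 enclosed the mab-10 values of 35.3 and 40.0, so the last pair did not differ beyond their spread. This order describes the sites that were chosen and carries no test.

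**Figure D1:**
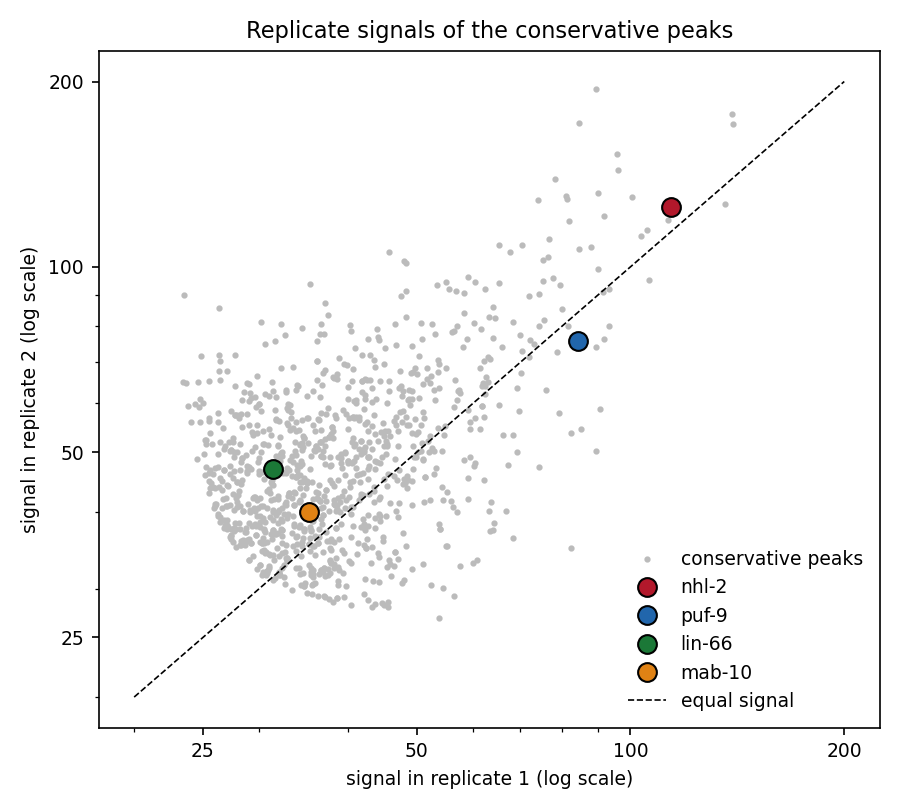
Signal of the overlapping peak in replicate 1 (horizontal) and replicate 2 (vertical), both on log scales and in the peak caller's units, for the conservative peaks (grey) and the 4 genes (colours), 1 point per peak. nhl-2 (114.1 and 125) and puf-9 (84.3 and 75.9) lie toward the upper end along the dashed line of equal signal, and lin-66 and mab-10 lie inside the main cloud.

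The replicates' own thresholded lists divided the 4 genes into the same pairs, and the other thresholded list lacked mab-10 alone. These lists keep peaks with a score of at least 830 on an irreproducible discovery rate (IDR) scale, a measure of whether a peak keeps its place in the order of separate peak sets that is capped at 1000. All 4 peaks had the capped score of 1000 in the ranked list of both replicates, as did 781 of the 1069 conservative peaks (73.1%). The nhl-2 and puf-9 peaks also stood in the other thresholded list of both replicates and in each replicate's own list, with scores of 1000 in each replicate. Peaks of both replicates' own lists overlapped 251 of the 1069 conservative peaks (23.5%). The lin-66 peak stood in the other thresholded list but in neither replicate's own, where its scores were 149 in replicate 1 and 808 in replicate 2. Of the thresholded lists, the mab-10 peak stood in the conservative one alone, with scores of 684 and 616 in the replicates and 516 in the second ranked list of both. No peak of either replicate's own list overlapped 436 of the conservative peaks (40.8%), and the other thresholded list overlapped 916 (85.7%). For comparison, the promoter window held a summit for 559 genes in the other thresholded list (2.8%), 174 in that of replicate 1 (0.871%) and 362 in that of replicate 2 (1.81%).

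Where the replicates placed the summit was also unequal among the 4 genes. The replicate summits lay 26 bp apart at puf-9, 32 bp at nhl-2 and 51 bp at lin-66. Over the 1050 peaks with a peak in both replicates the median distance was 29 bp, with a highest of 293 bp, so these 3 lay in the common range. At mab-10 the summits lay 172 bp apart, at 10527611 in replicate 1 and 10527783 in replicate 2. A distance as large was found at 1.43% of the 1050 peaks. The mab-10 peaks of the replicates shared 90 bp, and those at the other 3 genes shared 211 to 236 bp. The mab-10 summit of the conservative list, 10527745, lies between them, and the sequence printed for it holds the replicate 2 summit but not that of replicate 1.

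**Figure D2:**
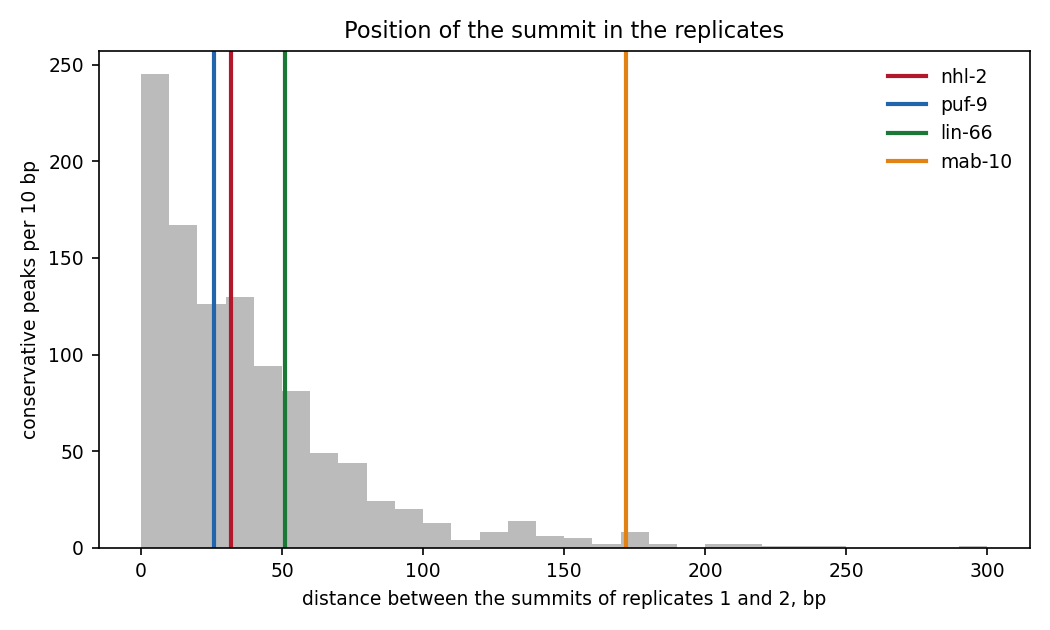
Number of conservative peaks (vertical) by the distance in bp between the summits of the overlapping peaks of replicates 1 and 2 (horizontal, bins of 10 bp), with coloured lines at the 4 genes. The lines of puf-9 (26 bp), nhl-2 (32 bp) and lin-66 (51 bp) cross the bulk of the distribution and that of mab-10 (172 bp) lies in its right tail.

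Most of the peaks at the 4 loci were weak. The ranked list held 11 peaks at nhl-2, 14 at puf-9, 13 at lin-66 and 8 at mab-10, and the only one with a score of 830 or more at each gene was its promoter peak. Both replicates' own ranked lists had an overlapping peak at 20 of the 46. Some of the 46 were neighbouring positions that shared a replicate peak. The mab-10 peak 129 bp upstream of the start (signal 19.2, score 392) had the same replicate 2 peak as the main mab-10 peak, but a replicate 1 peak of its own, with a signal of 18.7 and a summit 27 bp before the start.

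At nhl-2 the promoter peak stood alone. The strongest separate peak, 3206 bp into the gene in a coding exon, had a signal of 35.1 and a score of 53. Its overlapping replicate peaks had signals of 9.01 and 25.2. The promoter signal was 6.97 times as high in the ranked list and 4.96 times in replicate 2. In replicate 1 the next peak was another one, 1597 bp upstream with a signal of 21.3, and the ratio to it was 5.35. That peak lay inside the neighbouring gene tag-340 and in its promoter window. For comparison, the strongest ranked peak of each locus, in the promoter window or not, was set against the next at 521 bound genes with a separate second peak. The median of this ratio was 2.11 (quartiles 1.56 and 2.83), and 2.11% had one as high as nhl-2.

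At puf-9 the second peak lay upstream, 1873 bp before the start. Its summit was inside dct-11 (chrX:5838039-5839778, minus strand) and in that gene's promoter window. Its signal was 46.4 and its score 264. The puf-9 promoter peak was 3.53 times as strong. In replicate 2 the ratio was 2.22, to a peak 1790 bp upstream, and in replicate 1 it was 3.48, to another peak 1054 bp upstream with a signal of 24.2. A ratio as high was found at 13.2% of the 521 genes. In replicate 2 that upstream site had a signal of 34.3 and a score of 783, and the overlapping peak of replicate 1 had a signal of 16.9. A further peak 926 bp upstream had a signal of 41.6 and a score of 224. The peaks 926, 1054 and 1790 bp upstream also had their summits in the promoter window of dct-11.

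At lin-66 the lead of the promoter peak was smaller. The next peak, 5262 bp into the gene in an untranslated or non-coding exon, had a signal of 44.3 and a score of 63. Its overlapping replicate peaks had signals of 25.6 and 13.9. The ratio was 1.93 in the ranked list, as high as or lower than that of 59.3% of the 521 genes, and 1.23 in replicate 1. In replicate 2 the next peak was another one, 3698 bp into the gene with a signal of 25.1, and the ratio to it was 1.87. The internal lin-66 start 3596 bp into the gene had a ranked peak 127 bp inside it, with a signal of 39.1, a score of 191, and overlapping replicate peaks of 15.8 and 25.1. A peak 3710 bp upstream had a signal of 43.8 and a score of 159.

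mab-10 had a second peak of nearly the same strength in the ranked list and in replicate 2's own list. Replicate 1's own list lacked it. This second peak lay 1354 bp into the gene, in an intron and 897 bp upstream of the internal start at 2251 bp. Its signal was 48.0 against 57.6 at the promoter, a ratio of 1.20 that 90.4% of the 521 genes matched or passed. Its score of 781 fell just short of 830. The peak sets behind it had signals of 24.9 and 40.4 (mean 32.6 ± 10.9, SD, n = 2), against 37.6 ± 3.29 at the promoter, and the 2 sites overlapped in these values. In replicate 2's own list the intron peak was the stronger by a ratio of 1.01, at 40.4 against 40.0, with scores of 704 and 616. Replicate 1's own ranked list had no peak overlapping the intron peak. The unnumbered value of 24.9 therefore had no counterpart there, and which replicate it belongs to is not stated. It stands in the place that held the replicate 1 value at the promoter peaks of these genes, and 40.4 was the value of replicate 2's own list. The next separate peak in replicate 1's own list was the one 27 bp before the start, and the promoter peak was 1.89 times as strong. That ratio leaves out the value of 24.9.

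**Figure D3:**
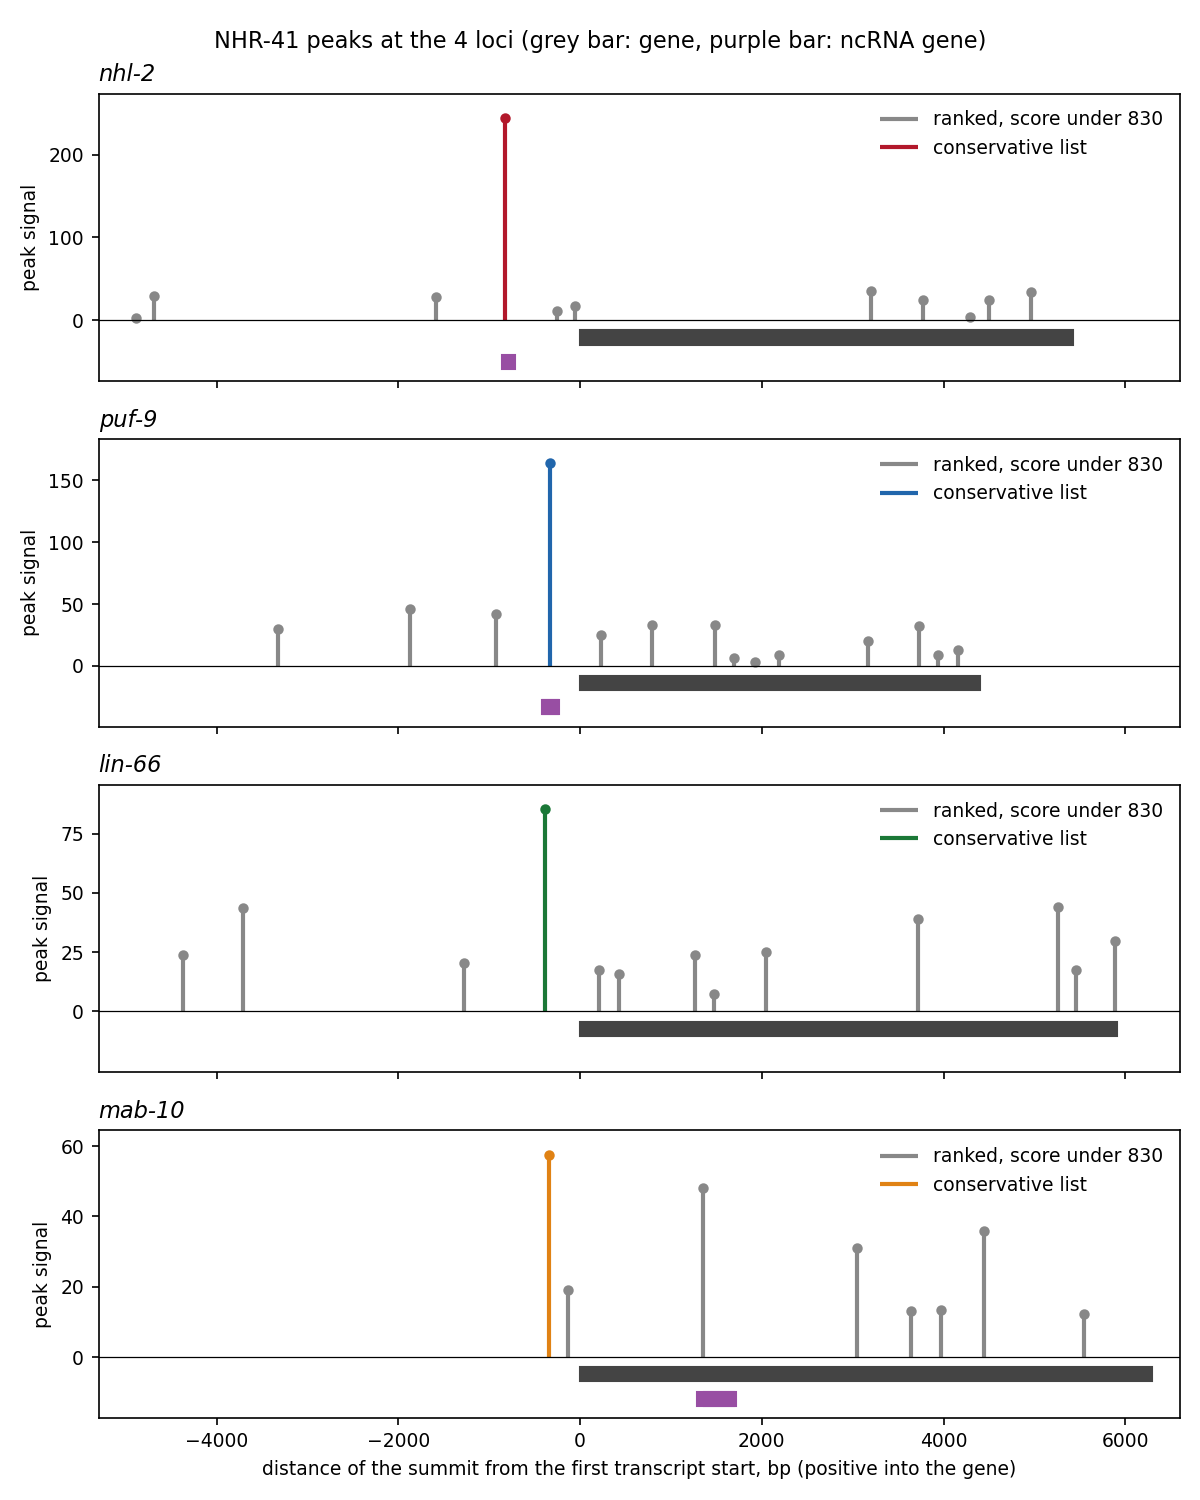
Peaks of the ranked list at the 4 loci, with the distance of the summit from the first transcript start in bp (horizontal, positive into the gene) and the peak signal (vertical, a separate scale for each gene). Coloured stems are conservative peaks, grey stems are ranked peaks with a score under 830, dark bars are the genes and purple bars are ncRNA genes. The promoter peak is far above the rest at nhl-2 (244 against 35.1) and close to an intron peak at mab-10 (57.6 against 48.0).

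**Figure D4:**
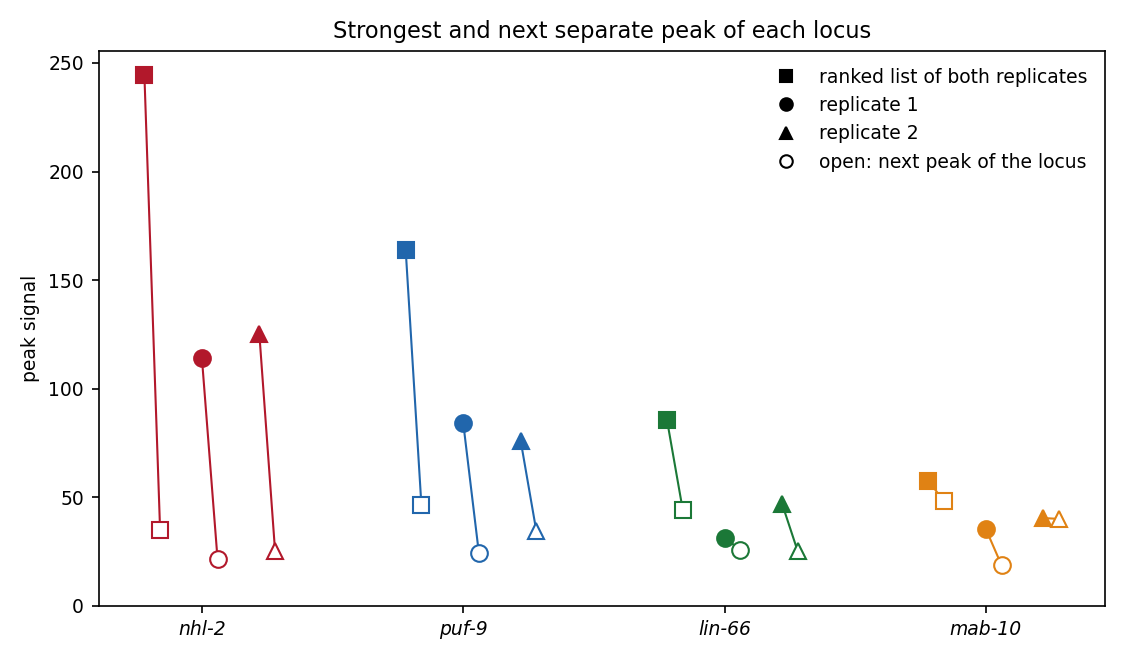
Signal (vertical) of the strongest peak (filled) and the strongest separate peak (open) of each locus, in the ranked list of both replicates (squares) and in the own ranked lists of replicate 1 (circles) and replicate 2 (triangles). A line joins the points of one list. In each list the line is longest at nhl-2 and next longest at puf-9. At lin-66 the line of the ranked list (85.4 and 44.3) is longer than those of the replicates. At mab-10 the line is nearly level in replicate 2 (40.4 and 40.0).

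Other annotated genes lay at or beside these summits. The nhl-2 summit lay inside the ncRNA gene F26F4.14 (chrIII:4899802-4899950, minus strand). The puf-9 summit lay inside a pair of ncRNA genes on opposite strands, W06B11.7 (chrX:5841170-5841350, minus) and W06B11.9 (chrX:5841185-5841361, plus). The mab-10 intron peak lay inside R166.9 (chrII:10529373-10529774, minus strand), and its replicate 2 summit also inside R166.8 (chrII:10529447-10529798, plus strand). No ncRNA gene covered the promoter summits of lin-66 and mab-10, and the nearest one to lin-66 was 126103 bp away. Such overlap was frequent in these data: 187 of 1069 conservative summits (17.5%), and 77 of the 462 in promoter windows (16.7%), lay inside an ncRNA gene. Within 500 bp of the 4 promoter summits there were 0 tRNA, snRNA, snoRNA or microRNA genes.

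The nhl-2 peak was also the promoter peak of a second gene. It lay between nhl-2 and tag-340 (chrIII:4900508-4903170, plus strand), which are transcribed away from each other. The summit was 597 bp upstream of the tag-340 start and 826 bp upstream of that of nhl-2. Assigned to the nearest start alone, the peak went to tag-340 and 3 of the 4 genes kept a peak. Over the 462 promoter peaks the median distance to the nearest protein-coding start of any gene was 272 bp. The distances at puf-9, mab-10 and lin-66 (329, 339 and 391 bp) were nearer to that median than the 597 bp at the nhl-2 peak. The promoter peaks of puf-9, lin-66 and mab-10 stood in no other gene's window.

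The base composition of the windows was richer in G and C than promoters at large. The share of G and C was 53.6% at nhl-2, 49.7% at puf-9, 59.6% at lin-66 and 65.6% at mab-10. Over the 1069 conservative windows the median was 47.0% (quartiles 41.7% and 51.7%), and over windows of equal length before the starts of 19973 protein-coding genes it was 32.5% (28.5% and 37.7%). The lowest of the 4, puf-9, lay inside the quartiles of bound windows, and the other 3 lay above them.

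None of the 4 listed motifs stood in the printed windows. These were AGGTCA, a core element of many nuclear receptors, its extended form AAGGTCA, which contains it, the GATA-factor motif TGATAA and the E-box CACGTG, each searched on both strands. AGGTCA stood in 10.2% of the conservative windows, 11.5% of the 462 in promoter windows and 4.56% of those before starts. For AAGGTCA the shares were 4.12%, 4.33% and 1.82%. For TGATAA they were 22.7%, 24.0% and 18.0%, and for CACGTG 6.64%, 5.19% and 3.44%. With motifs at these shares, most single windows hold none. Over the whole of each peak, the 284 bp at puf-9 held 1 TGATAA.

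The shared words in capitals were found by comparing the 4 sequences with each other, after they had been seen, and carry no test. Of 534 different words of 7 letters in the windows, with a word and its reverse complement taken as one, 24 stood in 2 windows, 2 in 3 and 0 in all 4. TACTCTC stood at nhl-2 (outside the conservative peak), puf-9 and lin-66, with its first base 68, 39 and 15 bp from the summit. It occurred in 4.68% of conservative windows, 5.84% of those in promoter windows and 1.57% of windows before starts. GGTGTCC stood at nhl-2, lin-66 and mab-10, with its first base 50, 62 and 43 bp from the summit, and in 1.78%, 2.60% and 0.586% of those windows. All 6 copies read as printed on the strand of the gene.

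The rest of the pathway was looked at through a list of 35 genes: these 4, 19 other temporal regulators, 6 microRNAs, and 6 genes of the microRNA machinery or partners of NHL-2. Of the 31 that were not chosen for a peak, 24 are protein-coding, as all genes of the background are, and the thresholded peaks counted here were all at those 24. In the conservative list 1 of the 31 had a summit in the promoter window, beside the 2.68% of all protein-coding genes. In the other thresholded list 4 of the 31 had one (lin-14, din-1, ain-1 and cgh-1, background 2.8%), in replicate 1's own list 0 (0.871%) and in replicate 2's own list 1 (ain-1, 1.81%). From 5 kb upstream to the gene end, 7 of the 31 had a conservative summit, which is to be read against 7.84% of all protein-coding genes. By class these 7 were 5 of 19 temporal regulators, 0 of 6 microRNAs and 2 of 6 machinery genes. These are small counts from a list written with results of these data known, and gene length, which sets how wide that search reaches, was not matched. A ranked peak of any score stood in the promoter window of 29 of the 31, non-coding genes included, and in that of 48.9% of all protein-coding genes. Of the 24 protein-coding ones, lin-41 was the one without. The number of annotated starts, which sets how wide the promoter window reaches, was not matched either.

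The exception with a promoter summit was ain-1, which encodes a GW182-family protein that links Argonaute to silencing. Its peak at chrX:16612312-16612595 had a signal of 92.2, rank 371 of 1069, and lay 997 bp upstream of the start, at the edge of the window. Replicate 1 gave 28.4 and replicate 2 gave 60.9, a mean of 44.6 ± 22.96 (SD, n = 2), a wider spread than at any of the 4 genes. Its relative ain-2 had a peak 2446 bp upstream with a signal of 98.3 and replicate values of 50.1 and 50.1. That summit lay in the promoter windows of other genes, B0041.12 and B0041.5. The lin-41 gene, a target of let-7 that encodes a TRIM-NHL protein, had one 1431 bp upstream with a signal of 78.5 and replicate values of 38.6 and 40.97.

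The other 4 were at lin-42, kin-20, lin-14 and din-1. For lin-42, the worm relative of the clock gene Period, an intron peak had a signal of 117, rank 148, with replicate values of 51.0 and 58.2. For kin-20, a casein kinase that acts with LIN-42, an intron peak had a signal of 96.6 with values of 40.6 and 57.0. The lin-14 gene, whose protein specifies early larval fates, had an intron peak with a signal of 74.7 and values of 33.1 and 42.8, which lay 814 bp from an internal start. For din-1, a corepressor that binds the nuclear receptor DAF-12, a peak 1665 bp upstream had a signal of 76.7 and values of 38.4 and 33.6. All 7 of these peaks were stronger in signal than the mab-10 peak, and none reached puf-9 or nhl-2.

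Just outside the threshold of 830, the nearest promoter peaks were those of lin-14, din-1 and alg-1. The lin-14 peak had a score of 793 and a signal of 65.0, 88 bp upstream of a start, with signals of 30.8 and 30.1 in its peak sets. The din-1 peak had a score of 739 and a signal of 69.0, with 23.6 and 43.6 in the peak sets. The peak of alg-1, which encodes an Argonaute of the microRNA pathway, had a score of 681 and a signal of 57.7, with 26.8 and 29.9. In this ranked list the mab-10 peak was well inside by score, at the cap of 1000, and had a signal of 57.6. The other thresholded list reversed this, with a promoter summit for lin-14 and din-1 and none for mab-10. The mab-10 peak scored 516 in the second ranked list, and 684 and 616 in the replicates' own lists. The mab-10 signal in the ranked list was below those of the 3 genes outside. The peak-set signals were ordered otherwise: the mab-10 values of 35.3 and 40.0 were above both values at lin-14 and at alg-1, and lay between those at din-1. Among the microRNA genes the highest score was 605 at lin-4, followed by 268 at let-7. At the lower end, hbl-1, the target of PUF-9, had a score of 26, as did nhr-25 and dcr-1, and lin-41 and mir-237 had no ranked peak in the promoter window.

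**Figure D5:**
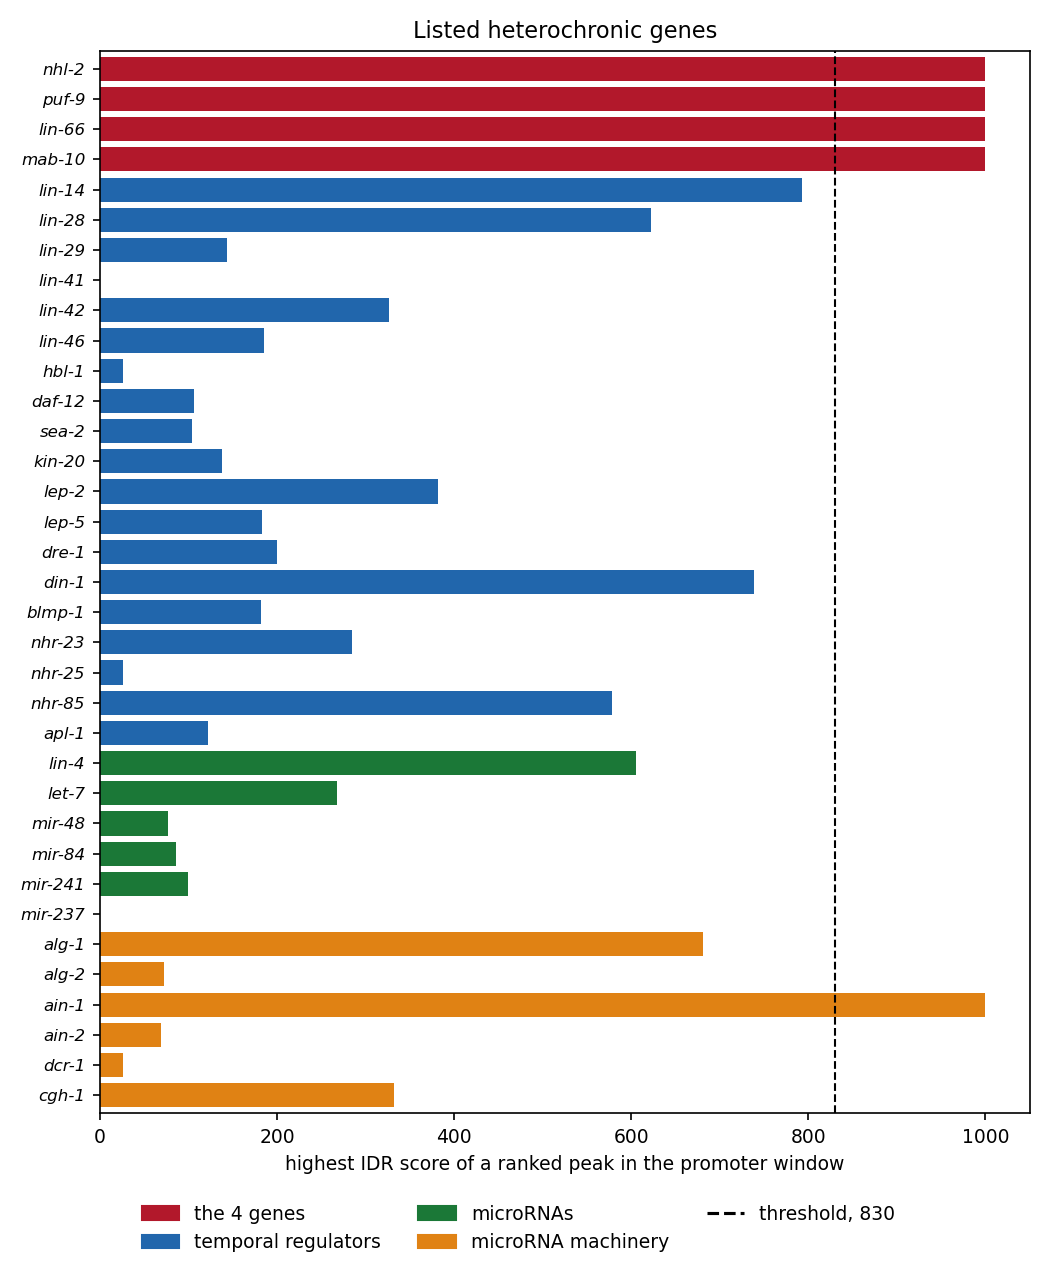
Highest IDR score of a ranked peak with its summit in the promoter window (horizontal, capped at 1000) for the 35 listed heterochronic genes, coloured by class, with a dashed line at the threshold of 830; a missing bar means no ranked peak. The 4 genes and ain-1 reach 1000, and lin-14 (793), din-1 (739) and alg-1 (681) stop closest below the line.

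The promoter peaks most like each gene's were sought among the other 461 promoter peaks, over log2 of the 2 unnumbered peak-set signals that the ranked list gives for each. The values printed are those of the numbered replicates. Nearest to nhl-2 were the peak of F44E5.4 and F44E5.5, which encode Hsp70 proteins (105 and 114.9 in replicates 1 and 2) and that of rpl-35, a ribosomal protein gene (103 and 112). Nearest to puf-9 were the peak shared by F55A11.11 and F55A11.6 (89.5 and 74.1) and that of aat-3, an amino acid transporter gene (78.7 and 72.7). Nearest to lin-66 were the peaks of F17E5.2 (31.6 and 47.3) and dpy-23, a clathrin adaptor gene (31.7 and 47.4). Nearest to mab-10 were those of tyr-3, a tyrosinase gene (35.7 and 39.7), and of F35F10.1 with arrd-19 (35.4 and 39.4). The distances on the log2 scale were 0.0118 to 0.0226 at lin-66 and mab-10, where many peaks have like values, and 0.0929 to 0.209 at puf-9 and nhl-2.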

How the data were processed

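Whole L4 larvae of 1 strain were measured by ChIP-seq as 2 biological replicates of 1 group, with fragments of 200 to 800 bp, per the labels. The starting points were 8 peak lists on ce11 deposited by the authors. Aligner, peak caller and versions were not given in the sources used here, apart from the build. The score is the authors' deposited IDR score, and the signal is their deposited peak value, used only to rank or describe peaks within a list. In the deposited ranked list the lowest −log10 IDR at a score of 830 or more was 2.00. A further 6 columns of peak-set signals belonged to lists or sets not used.

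From the files, summits were assigned to gene models of Ensembl release 115 on WBcel235 (ce11). Replicate values are those of the strongest peak overlapping by at least 1 bp in each replicate's own ranked list; they equalled the unnumbered values of the ranked list for 1048 of 1069 conservative peaks. No statistical test was run, since the members were chosen by these peaks. The members and lists were chosen with earlier results of these data known. Of the 35 listed genes, 6 microRNAs were matched by RefSeq name. Named genes were the 4 members, genes sharing their peaks, listed genes with a conservative summit from 5 kb upstream to the gene end, the 3 nearest below 830, and the genes at the 2 most similar promoter peaks per member. Other listed genes were named after their scores were seen. Alternatives were the other lists, each replicate alone, a score of 1000, peak overlap in place of the summit, other windows and the nearest start. Window and motif searches were tested on simulated data. The work used Python 3.11.15, pandas 2.3.3 and NumPy 2.4.6.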

Additional observations from a re-analysis of the deposited data

How the results depend on the processing

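The count of conservative peaks at the 4 genes was 4, and so was the count of genes with a summit in the promoter window; both were 2 without replicate 1 and 2 without replicate 2, where the lost genes were lin-66 and mab-10. The other thresholded list gave 3 for both counts, and so did a promoter of 500 bp and the nearest start for the second. The count of listed heterochronic genes was 5; it ran from 2 to 3 without one replicate, and was 7 in the other thresholded list, 3 with a promoter of 500 bp and 8 with one of 2000 bp. A score of 1000 and overlap in place of the summit left these counts at 4, 4 and 5. The motif counts were 0 in windows of 50 and 100 bp to each side as well. Ranked by the mean of the replicate signals, lin-66 moved from the top 44.9% to 61.5% of the list and mab-10 from 92.8% to 68.8%, and the cause was not tested. No paired analysis was possible because there was 1 group and no test. With unknown depth and 2 replicates, no level here has a counting interval, and the absence of a site from a list does not show that it was unbound.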
